A study of Mus musculus with 4 samples.

Results

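The genes examined here control the entry of pyruvate into mitochondrial oxidation, together with Txnip and its relative Arrdc4. They are the pyruvate dehydrogenase kinase genes Pdk1, Pdk2, Pdk3 and Pdk4, the phosphatase genes Pdp1 and Pdp2, the mitochondrial pyruvate carrier genes Mpc1 and Mpc2, and the arrestin genes Txnip and Arrdc4. These 10 of the 45777 genes measured were found by symbol. They were chosen from the gene levels in these same libraries, with Pdk4 and Txnip already known to differ between them, so every value below is a description and carries no test.

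RNA was sequenced from primary mouse hepatocytes, which the labels give as coming from liver of Dusp6 knockout (KO) or wild-type (WT) animals. Dusp6 codes for a cytoplasmic phosphatase of the kinase ERK. After 3 h in serum-containing culture, cells were left untreated or received palmitic acid at 0.5 mM with oleic acid at 1 mM for 24 h. Cells given both acids are called loaded below. The 4 groups are thus untreated WT, untreated KO, loaded WT and loaded KO, each with 1 library. The sources used here do not give how the Dusp6 allele was made, the animals' age and sex, whether cells of several animals were pooled, or whether untreated cells received a vehicle. Each library held between 85423156 and 97364292 reads assigned to genes.

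The pyruvate dehydrogenase complex turns pyruvate into acetyl-CoA inside mitochondria, after the pyruvate carrier, a pair of Mpc1 and Mpc2 proteins, has brought it across the inner membrane. Kinases of the Pdk family phosphorylate the complex and switch it off, and the Pdp phosphatases switch it on again. In liver, Pdk4 is known as a gene of fasting that responds to the fatty acid receptor PPARα and to FOXO factors. Txnip and Arrdc4 are alpha-arrestins that lower glucose uptake, and Txnip also binds thioredoxin. Both are textbook targets of the sugar-sensing factors MondoA and ChREBP (genes Mlxip and Mlxipl).

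Pdk4, Txnip and Arrdc4 were the members that stood far above their other levels in the loaded WT library. Their promoters are shown because these genes had by far their highest level in the same library. Mpc1 and Pdk3 were also highest there, by smaller margins. RefSeq promoters on GRCm38.p6, which is mm10, were found for 9 of the 10 genes, and each runs from 250 bases before the start site to 50 bases after it. Capitals mark every match, on either strand, to the motifs searched, which are described after the sequences.

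Txnip, chr3:96557707-96558006, plus strand: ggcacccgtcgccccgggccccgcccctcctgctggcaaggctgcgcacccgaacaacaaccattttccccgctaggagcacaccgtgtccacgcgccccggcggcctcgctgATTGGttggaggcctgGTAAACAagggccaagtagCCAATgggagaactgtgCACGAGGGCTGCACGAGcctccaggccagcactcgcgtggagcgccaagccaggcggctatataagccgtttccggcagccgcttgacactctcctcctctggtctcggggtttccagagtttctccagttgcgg
Arrdc4, chr7:68749189-68749488, minus strand: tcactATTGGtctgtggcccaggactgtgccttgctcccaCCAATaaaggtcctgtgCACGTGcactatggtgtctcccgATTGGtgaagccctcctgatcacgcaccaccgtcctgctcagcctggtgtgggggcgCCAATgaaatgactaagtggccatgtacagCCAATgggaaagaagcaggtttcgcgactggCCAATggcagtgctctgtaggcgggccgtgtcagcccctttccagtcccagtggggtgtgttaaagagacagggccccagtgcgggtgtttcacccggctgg
Pdk4, chr6:5496229-5496528, minus strand: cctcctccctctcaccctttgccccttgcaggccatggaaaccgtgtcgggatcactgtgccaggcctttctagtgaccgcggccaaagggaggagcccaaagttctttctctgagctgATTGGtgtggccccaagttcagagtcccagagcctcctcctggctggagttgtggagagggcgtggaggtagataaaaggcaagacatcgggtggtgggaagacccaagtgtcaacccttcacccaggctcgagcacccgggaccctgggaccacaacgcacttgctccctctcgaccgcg

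The motifs were chosen with the Txnip sequence already known. The Txnip promoter holds the letters CACGAG followed after 5 bases by the same letters, the form of a carbohydrate response element, from 85 to 69 bases before the start site. Of all 32851 promoters of this length, only that of Txnip holds this exact repeat (0.00304%). Looser forms of the element were not searched, so this does not show which other members hold one. The palindrome CACGTG, the core of an E-box, lies 193 to 188 bases before the start site of Arrdc4 and also occurs in the promoters of Pdp2 and Pdk2. It is present in 7.15% of all promoters. The CCAAT box, read on both strands, occurs 2 times in the Txnip promoter, 6 times in that of Arrdc4 and 1 time in that of Pdk4, and at least once in 37.4% of promoters. The forkhead core GTAAACA occurs in the Txnip promoter, where none of its letters overlap another motif, and in 3.65% of promoters. The letters TATAAA (13.6% of promoters) and a repeat of AGGTCA spaced by 1 base (0.0396%), the form bound by PPAR receptors, were not found in the promoter of any member. These matches are letters in a window and say nothing of binding.

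On the FPKM scale, which corrects for transcript length, 8 of the 10 genes reached a level of 1 in some library, and Pdk2 and Pdk3 did not. Mpc2, Mpc1 and Txnip were the most abundant members in the untreated libraries. Txnip was the most abundant in loaded WT, and Mpc2 in loaded KO. Differences are given below on the log2(FPKM + 1) scale, in which 1 is added to damp low values, relative to the median of 5903 genes with an FPKM of 5 or more in all 4 libraries. On the deposited scale that median gene differed by 0.00 for KO minus WT in untreated cells, by 0.38 for KO minus WT with fatty acids, by -0.26 for loaded minus untreated WT and by 0.16 for the same in KO. Differences of 2-fold or more were counted, among 11927 genes that reached an FPKM of 1 in some library. Ratios of reads scaled to the library total (CPM) carry an exact 95% binomial interval that covers counting error only. No value has a replicate check.

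**Figure D1:**
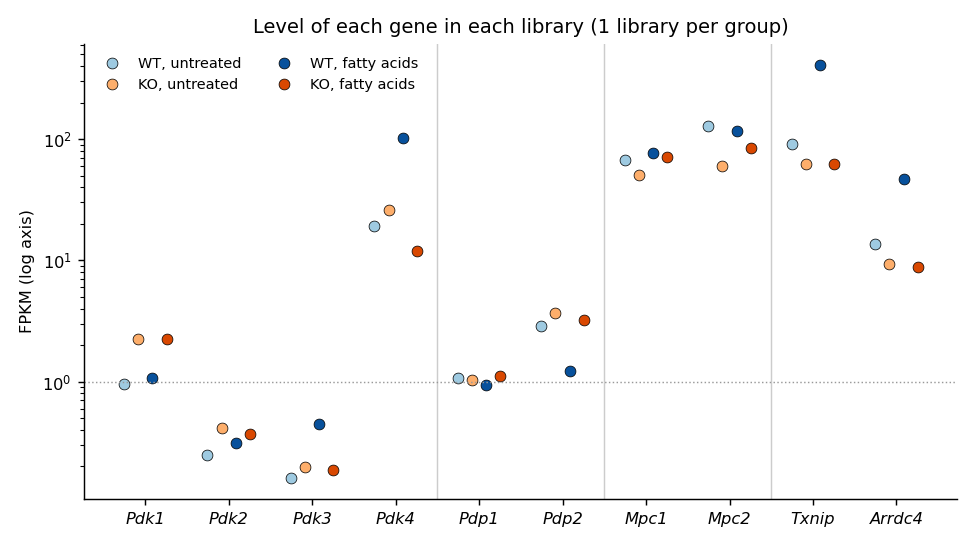
FPKM of the 10 genes (log axis) in each of the 4 libraries, 1 point per library; vertical lines separate kinases, phosphatases, carriers and arrestins, and the dotted line marks an FPKM of 1. The loaded WT library is the highest for Pdk4 (103), Txnip (411) and Arrdc4 (47.2) and the lowest for Pdp2 (1.23). By smaller margins it is also the highest for Mpc1 (77.1) and Pdk3 (0.443) and the lowest for Pdp1 (0.945).

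The library labels and the cell type were checked first. Dusp6 had an FPKM of 40.7 and 77.1 in the WT libraries without and with fatty acids, against 1.42 and 1.11 in the KO libraries. Hepatocyte markers (7 genes measured, none at 0) summed to an FPKM of 5057 to 8581. Markers of Kupffer cells and macrophages (12 genes) summed to 46.1 in untreated WT cells, 101 in untreated KO, 108 in loaded WT and 118 in loaded KO, with Cd163 at 0 in the last of these. Sinusoidal endothelial markers (8 genes, none at 0) summed to 4.56, 16.6, 12.0 and 11.3 in the same order, and red blood cell markers (5 genes, none at 0) to 70.7, 62.0, 121 and 75.2. Stellate cell and fibroblast markers (8 genes) stayed at a sum of 0.421 to 2.20, with the stellate marker Lrat at 0 in both WT libraries. Cholangiocyte markers (6 genes) summed to 7.16 to 24.3, almost all of it from Spp1 and Sox9, while Krt7 and Cftr were at 0 in every library. Lymphocyte and neutrophil markers (6 genes) summed to 4.52 to 8.58, with Ly6g at 0 throughout. In bulk RNA, fewer cells of a type and less RNA per cell cannot be told apart.

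Among the kinases, Pdk4 carried most of the transcript and nearly all of the difference. Pdk4 (Entrez 27273; mm10 chromosome 6, bases 5483351 to 5496278) had an FPKM of 19.2 in untreated WT cells, 25.8 in untreated KO, 103 in loaded WT and 12.0 in loaded KO. One library, loaded WT, was thus far above the other 3, and loaded KO was the lowest. With fatty acids Pdk4 was higher in WT by 2.62 on the log2 scale, the 8th largest difference among the genes compared. In KO it was lower by 1.20 (log2 difference -1.20), the 351st lowest, where 602 genes were lower by 2-fold or more.

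In reads, the WT libraries differed 5.50-fold in Pdk4 CPM (exact 95% interval 5.36 to 5.65, from 36837 and 6558 reads). Loaded KO had 0.459 times the CPM of untreated KO (exact 95% interval 0.443 to 0.476, from 4640 and 8864 reads). The fatty acid differences of Pdk4 therefore pointed in opposite directions in the 2 genotypes. Their difference, KO response minus WT response, was -3.83, the 3rd lowest of the 11927 genes. It rests on 1 library per group and was not tested.

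Between genotypes, Pdk4 was somewhat higher in KO without treatment and much lower with fatty acids. The log2 difference was 0.40 in untreated cells, where the KO to WT ratio in CPM was 1.38 (exact 95% interval 1.34 to 1.43). With fatty acids it was -3.37, the 17th lowest of all genes compared, and WT exceeded KO 8.68-fold in CPM (exact 95% interval 8.42 to 8.95). This second comparison shares the loaded WT library with the response in WT, so both rest on the same reads.

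Pdk1 (Entrez 228026; mm10 chromosome 2, bases 71873215 to 71903858) is the kinase gene known as a target of hypoxia-inducible factor. The largest difference of Pdk1 was between the genotypes in untreated cells. Its FPKM was 0.949 in untreated WT cells, 1.07 in loaded WT, 2.26 in untreated KO and 2.25 in loaded KO. Both KO libraries were above both WT libraries. The KO to WT ratio in CPM without treatment was 2.45, from 1165 and 486 reads (exact 95% interval 2.20 to 2.73), and 1.90 with fatty acids (exact 95% interval 1.73 to 2.09). Set against the median gene, these ratios became 2.38 and 1.48. On that footing the ratio of loaded to untreated cells was 1.49 in WT and 0.892 in KO. In WT it was thus about as large as the genotype ratio with fatty acids. Because 1 is added to a low FPKM, the genotype differences in log2(FPKM + 1) were smaller, at 0.74 and 0.27, against 0.35 for fatty acids in WT. The first passed 2-fold with a pseudocount of 0.1 (1.17), after rescaling to an equal sum (1.10) and in CPM with TMM factors (1.02). The second ranged from -0.05 with a pseudocount of 5 to 1.03 after rescaling to an equal sum.

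Pdk2 and Pdk3 were barely detected, with an FPKM of 0.248 to 0.412 and of 0.160 to 0.443. Pdk2, usually the most widespread family member, had 58 reads in untreated WT cells, 97 in untreated KO, 76 in loaded WT and 98 in loaded KO. Untreated WT was the lowest and the KO libraries were nearly equal. The Pdk2 CPM ratio of KO to WT in untreated cells was 1.71 (exact 95% interval 1.22 to 2.41). That of fatty acids in WT was 1.28 (exact 95% interval 0.900 to 1.84), or 1.51 relative to the median gene (exact 95% interval 1.06 to 2.17). Pdk3 had 33, 41, 95 and 44 reads in the same order, so that loaded WT stood above the other 3 libraries here too. The ratio to untreated WT was 2.82 in CPM (exact 95% interval 1.88 to 4.33). At so few reads the level of Pdk3 remained under an FPKM of 1, and on the log2(FPKM + 1) scale the difference was 0.58.

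Within a library the kinases can be compared without any scaling between libraries. Pdk4 made up 93.4% of the summed kinase FPKM in untreated WT cells, 90.0% in untreated KO, 98.3% in loaded WT and 81.1% in loaded KO. Pdk1 held most of the rest, from 1.03% in loaded WT to 15.2% in loaded KO. The Pdk4 to Pdk1 ratio in FPKM accordingly was 20.3, 11.4, 95.9 and 5.34 in untreated WT cells, untreated KO, loaded WT and loaded KO. The order of these ratios is the order of the Pdk4 shares.

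The phosphatase gene Pdp2 was lowest in the library where Pdk4 was highest. Pdp2 (Entrez 382051; mm10 chromosome 8, bases 104591472 to 104599026), which is known to fall in starved rat heart and kidney, had an FPKM of 2.86 in untreated WT cells, 3.67 in untreated KO, 1.23 in loaded WT and 3.24 in loaded KO. The loaded WT library was the low one. It had 0.443 times the Pdp2 CPM of untreated WT (exact 95% interval 0.405 to 0.484, from 724 and 1601 reads), whereas the same ratio in KO was 0.870 (exact 95% interval 0.818 to 0.925). KO exceeded WT 2.59-fold in CPM with fatty acids (exact 95% interval 2.38 to 2.82) and 1.32-fold without (exact 95% interval 1.24 to 1.41).

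Relative to the median gene, these Pdp2 ratios were 0.522 and 0.790 for fatty acids in WT and KO, and 2.02 and 1.28 for KO over WT with and without fatty acids. On the log2(FPKM + 1) scale no difference of Pdp2 reached 2-fold, the largest being 0.55 for KO minus WT with fatty acids and -0.53 for fatty acids in WT. That of KO minus WT with fatty acids did so in CPM with TMM factors (1.03) and after rescaling to an equal sum (1.34). Pdp1, the calcium-sensitive phosphatase, was level across the 4 libraries. Its FPKM was 1.07 in untreated WT cells, 1.03 in untreated KO, 0.945 in loaded WT and 1.11 in loaded KO. The sign of its small fatty acid difference changed with the scaling in both genotypes, ranging from -0.19 to 0.18 in WT and from -0.12 to 0.15 in KO.

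Summed kinase FPKM exceeded summed phosphatase FPKM 5.24-fold in untreated WT cells, 6.11-fold in untreated KO, 48.1-fold in loaded WT and 3.42-fold in loaded KO. The ratio in loaded WT was the outlying one, and it combines the highest Pdk4 with the lowest Pdp2. Without Pdk4, the other 3 kinases stood to the phosphatases at 0.345, 0.611, 0.839 and 0.647 in the same order.

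**Figure D2:**
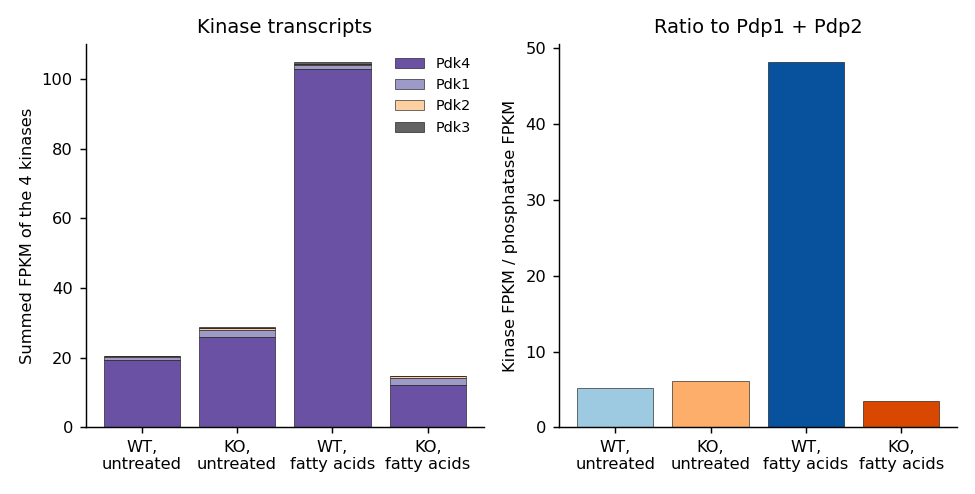
Left, stacked FPKM of Pdk4, Pdk1, Pdk2 and Pdk3 in each library (axis from 0); right, summed kinase FPKM divided by summed FPKM of Pdp1 and Pdp2. Pdk4 fills most of every bar, from 81.1% in loaded KO to 98.3% in loaded WT, and the ratio is 48.1 in loaded WT against 3.42 to 6.11 in the other libraries.

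Of the pyruvate carrier genes, Mpc2 separated the genotypes in FPKM and Mpc1 did not. Mpc2 (Entrez 70456; mm10 chromosome 1, bases 165461260 to 165481218) had an FPKM of 127 in untreated WT cells, 60.3 in untreated KO, 117 in loaded WT and 84.2 in loaded KO. Both WT libraries were above both KO libraries. WT exceeded KO 2.05-fold in CPM without treatment (exact 95% interval 1.98 to 2.12, from 10109 and 4826 reads) and 1.41-fold with fatty acids (exact 95% interval 1.37 to 1.45). The log2 differences were -1.07 and -0.84, so that only the first reached 2-fold. With fatty acids the size of that of Mpc2 depended on the scale, from -0.08 after rescaling to an equal sum to -0.87 with a pseudocount of 0.1.

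Mpc1 (Entrez 55951; mm10 chromosome 17, bases 8283787 to 8297667) was at an FPKM of 66.9 in untreated WT cells, 50.8 in untreated KO, 77.1 in loaded WT and 71.1 in loaded KO. Loaded KO was thus above untreated WT. In CPM, WT exceeded KO 1.27-fold without treatment (exact 95% interval 1.23 to 1.32) and 1.10-fold with fatty acids (exact 95% interval 1.06 to 1.13). Mpc1 thus leaned the same way as Mpc2 with a smaller difference, -0.39 and -0.49 on the log2 scale, and the second turned to 0.27 after rescaling to an equal sum. The Mpc2 to Mpc1 ratio within a library was 1.90 in untreated WT and 1.51 in loaded WT, against 1.19 and 1.18 in the KO libraries. In KO, both genes were higher with fatty acids, at 1.38 times the CPM of untreated cells for Mpc1 and 1.38 times for Mpc2, and each had 7568 reads in loaded KO. In WT the same ratio was 1.19 for Mpc1 and 0.944 for Mpc2. Relative to the median gene it was 1.40 in WT and 1.26 in KO for Mpc1, and 1.11 and 1.25 for Mpc2.

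An Mpc1 pseudogene, Mpc1-ps on chromosome 12 (110858070 to 110858954), was listed at an FPKM of 18.1, 11.5, 19.2 and 15.1 in untreated WT cells, untreated KO, loaded WT and loaded KO. Reads of the gene and of this near copy may be divided between them by the authors' counting, which makes the level of Mpc1 uncertain. The Mpc1 to Mpc1-ps ratio in FPKM was 3.70 to 4.71.

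Txnip showed the same outstanding library as Pdk4. Txnip (Entrez 56338; mm10 chromosome 3, bases 96557957 to 96561857) had an FPKM of 90.9 in untreated WT cells, 62.5 in untreated KO, 411 in loaded WT and 62.2 in loaded KO. The KO libraries were nearly equal and both below untreated WT. In WT, fatty acids went with 4.64 times the CPM (exact 95% interval 4.58 to 4.71, from 119084 and 25118 reads), and in KO with 0.980 times (exact 95% interval 0.960 to 1.00). The log2 difference was 2.43 in WT, the 11th largest of all genes compared, and -0.17 in KO. KO response minus WT response was -2.60, the 34th lowest, and was not tested.

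Between genotypes, Txnip was lower in KO in both conditions. WT exceeded KO 1.41-fold in CPM without treatment (exact 95% interval 1.39 to 1.44) and 6.70-fold with fatty acids (exact 95% interval 6.60 to 6.81). The log2 differences were -0.54 and -3.08.

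Arrdc4 (Entrez 66412; mm10 chromosome 7, bases 68736994 to 68749238) ran in parallel at a lower level, with an FPKM of 13.7 in untreated WT cells, 9.30 in untreated KO, 47.2 in loaded WT and 8.80 in loaded KO. Its libraries fell in the same order as those of Txnip. Fatty acids went with 3.36 times the CPM in WT (exact 95% interval 3.25 to 3.48) and 0.852 times in KO (exact 95% interval 0.810 to 0.896). WT exceeded KO 1.39-fold without treatment (exact 95% interval 1.33 to 1.46) and 5.49-fold with fatty acids (exact 95% interval 5.28 to 5.71). On the log2 scale the response was 1.98 in WT and -0.23 in KO. The Txnip to Arrdc4 ratio in FPKM was 6.66 in untreated WT cells, 6.72 in untreated KO, 8.70 in loaded WT and 7.07 in loaded KO, so the pair kept a nearly fixed proportion outside loaded WT. The Txnip to Pdk4 ratio was less steady, at 4.72, 2.42, 3.99 and 5.16.

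**Figure D3:**
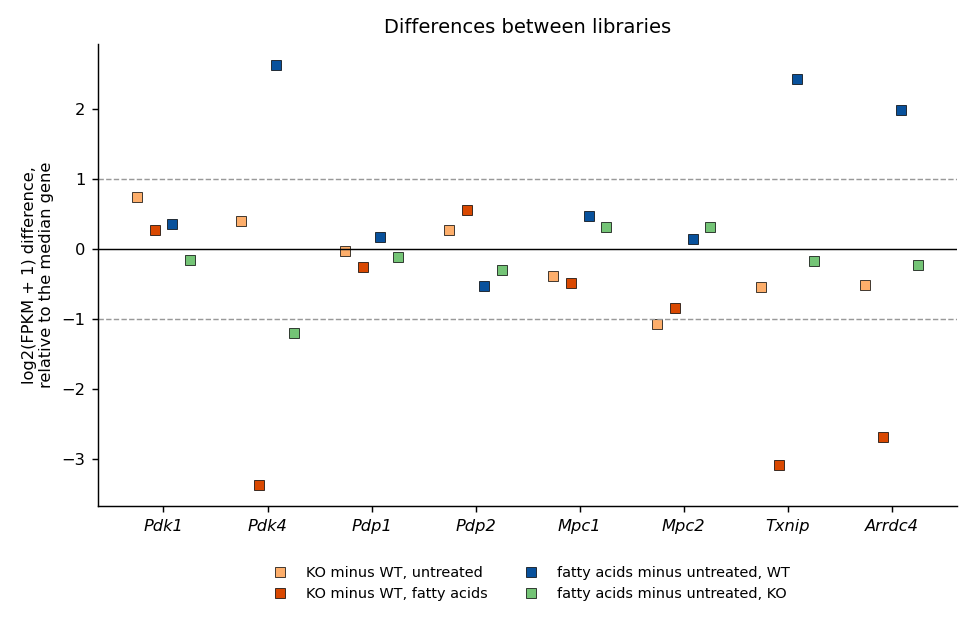
Difference in log2(FPKM + 1) relative to the median gene for the 8 genes compared, 1 square per comparison of 2 libraries; dashed lines mark 2-fold. Pdk4, Txnip and Arrdc4 lie at 2.62, 2.43 and 1.98 for fatty acids in WT and at -3.37, -3.08 and -2.68 for KO minus WT with fatty acids, and the other genes lie between -1.07 and 0.74.

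**Figure D4:**
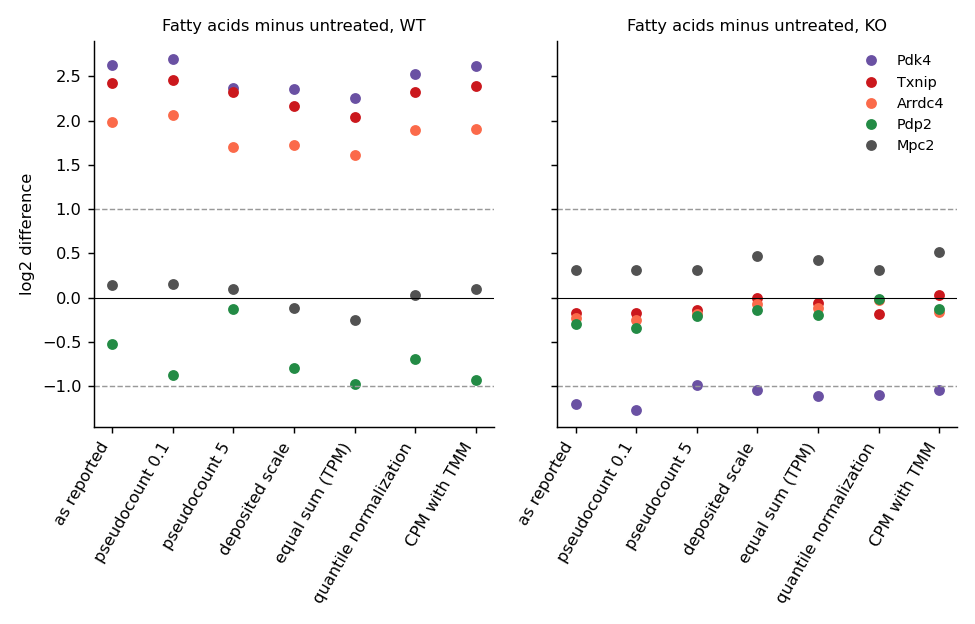
Log2 difference of 5 genes as reported and under 6 other settings, for loaded minus untreated cells in WT (left) and KO (right); dashed lines mark 2-fold. In WT, Pdk4, Txnip and Arrdc4 stay above the upper dashed line in every setting (lowest 1.61), and in KO Pdk4 lies between -1.26 and -0.99.

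Counted by the 2-fold rule over the 8 genes compared, KO minus WT in untreated cells held 0 higher genes, against 3.55% of all genes compared, and 1 lower gene, Mpc2, against 2.1%. KO minus WT with fatty acids held 0 higher genes (3.12% of all) and 3 lower genes (8.43% of all), which were Pdk4, Txnip and Arrdc4. Fatty acids in WT went with 3 higher genes (3.57% of all), the same 3, and 0 lower genes (0.654% of all). In KO they went with 0 higher genes (0.101% of all) and 1 lower gene, Pdk4 (5.05% of all). KO response minus WT response held 0 genes past 2-fold upward (1.14% of all) and 3 downward (10.7% of all). Since the members were chosen on these comparisons, nothing is read from the shares. Over all genes the balance of directions depended on scaling. In untreated cells 423 were higher and 250 lower in KO, but 1253 and 181 after rescaling to an equal sum. Of all genes compared, 372 were higher and 1006 lower in loaded KO than in loaded WT, but 1172 and 498 on the deposited scale. For fatty acids in WT the split was 426 and 78, or 212 and 267, and for the difference of responses 136 and 1273, or 757 and 479.

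Genes of the complex that the kinases and phosphatases act on did not reach 2-fold with fatty acids. Of 6 genes for the pyruvate dehydrogenase complex and its phosphatase regulator, 0 were past 2-fold for genotype in untreated cells or for fatty acids in either genotype. The median fatty acid difference was -0.16 in WT and -0.05 in KO, against 0.03 and -0.10 over all genes compared. Pdha1, the subunit that is phosphorylated, had an FPKM of 33.5 in untreated WT cells, 41.6 in untreated KO, 22.7 in loaded WT and 43.2 in loaded KO. With fatty acids, KO minus WT was 1.17 for the acetyltransferase Dlat (18.6 against 5.70) and -1.02 for Pdhb (226 against 353). The Pdk4 to Pdha1 ratio was 0.574, 0.621, 4.53 and 0.279 in untreated WT cells, untreated KO, loaded WT and loaded KO.

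Genes of the carbohydrate-response factors and their targets had the highest median WT response of the context lists, followed by PPARα targets. Cell type markers had higher medians in the same comparison, at 0.62 for hepatocytes (7 genes), 1.35 for macrophages (10), 1.12 for endothelium (3) and 1.02 for red blood cells (5), and their part in the list's response was not tested. Of the 13 carbohydrate-response genes, 3 were higher (3.57% of all genes) and 0 lower (0.654%) by 2-fold with fatty acids in WT. The median was 0.54 (all genes 0.03). In KO, 0 were higher (0.101% of all genes) and 1 was lower (5.05%), with a median of -0.24 (all genes -0.10). Rgs16, a regulator of G protein signalling, had an FPKM of 2.04 in untreated WT cells, 0.657 in untreated KO, 10.2 in loaded WT and 0.714 in loaded KO. The transcription factor gene Klf10 was at 27.2, 42.6, 83.4 and 34.1 in the same order, and the glucose-6-phosphatase gene G6pc at 2.28, 5.49, 8.25 and 8.01. Rgs16 and Klf10 thus had their highest level in loaded WT, while G6pc was nearly as high in loaded KO.

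Pyruvate kinase Pklr, a classical ChREBP target, was at 9.90, 9.01, 16.6 and 6.23. The gene for ChREBP itself, Mlxipl, was at 4.63, 9.08, 6.43 and 4.19, and was the member of the list that was lower by 2-fold with fatty acids in KO (-1.12). Mlxip, which codes for MondoA, was at 0.625, 1.47, 0.369 and 0.479. For KO response minus WT response, 6 of the 13 genes were past 2-fold downward (10.7% of all genes) and 0 upward (1.14%). The median was -0.94 (all genes -0.20).

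Of 4 other alpha-arrestin genes, Arrdc2 and Arrdc3 were higher by 2-fold with fatty acids in WT, and no thioredoxin system gene of the list was. Arrdc3 had an FPKM of 7.09 in untreated WT cells, 13.4 in untreated KO, 14.1 in loaded WT and 14.8 in loaded KO. Arrdc2 was at 1.37, 1.32, 3.20 and 1.38 in the same order. Their fatty acid differences were 1.16 and 1.09 in WT and -0.03 and -0.12 in KO. Arrdc1 was at 1.54, 2.50, 1.84 and 2.91, with a difference of 0.42 in WT, and Arrdc5 was listed at 0 in every library. Thioredoxin itself, Txn1, was at 506, 468, 430 and 599, and the Txnip to Txn1 ratio was 0.179, 0.134, 0.956 and 0.104. Of the 11 list genes compared, 2 were higher and 0 lower with fatty acids in WT and 0 were past 2-fold in KO, with medians of 0.03 and -0.03.

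Many PPARα targets were lower in untreated KO, where Pdk4 was not. Of 18 such genes, 8 were lower (2.1% of all genes) and 0 higher (3.55%) by 2-fold in untreated KO. The median was -0.53 (all genes 0.08), whereas Pdk4 was at 0.40. Pdk4 was not alone in this. Creb3l3 (0.68), Acadl (0.54), Cpt2 (0.41), Fgf21 (0.31) and Cpt1a (0.065) also had positive differences, and the rest of the list had negative ones. With fatty acids 9 of 18 were lower in KO (8.43% of all genes) and 0 higher (3.12%), with a median of -1.04 (all genes -0.06). In WT, fatty acids went with 2 higher genes (3.57% of all genes), among them the lipase inhibitor Angptl4 (FPKM 120 against 55.7). In KO they went with 0 in either direction. In KO, Angptl4 was at 22.9 untreated and 25.3 with fatty acids. Unlike Pdk4, it was already lower in KO without fatty acids, with a log2 difference of -1.25.

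**Figure D5:**
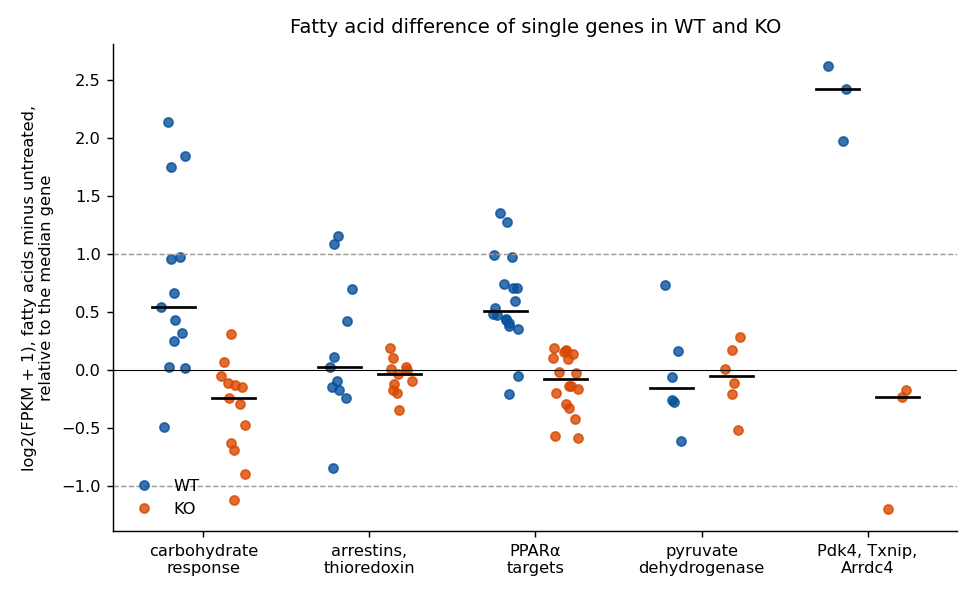
Fatty acid difference in log2(FPKM + 1) relative to the median gene for each compared gene of 4 context lists and for Pdk4, Txnip and Arrdc4, in WT (blue) and KO (orange); black bars are medians and dashed lines mark 2-fold. The carbohydrate-response list has medians of 0.54 in WT and -0.24 in KO, and the pyruvate dehydrogenase complex -0.16 and -0.05.

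Of 9 genes known to act on Pdk4 that were compared, 1 was higher with fatty acids in WT (3.57% of all genes), the C/EBPβ gene Cebpb (1.00), and 0 were lower. In KO, 2 were lower with fatty acids (5.05% of all genes), Ppard (-1.38, FPKM 1.19 against 4.10) and Foxo1 (-1.19, 0.584 against 2.23). In WT, Ppard was at 0.814 loaded against 1.57 untreated, and Foxo1 at 1.10 against 1.16. Between genotypes with fatty acids, 2 of the 9 were higher in KO (3.12% of all genes), Esrra (1.07) and Rxra (1.05). In that comparison 0 were lower (8.43% of all genes). Ppara, the gene of PPARα, was at 2.24, 2.45, 2.23 and 2.13 in untreated WT cells, untreated KO, loaded WT and loaded KO. Its reads did not follow these level FPKM values, at 1352, 1050, 759 and 933 in the same order. Whether Ppara differed between the libraries is thus unsettled.

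Glycolytic genes leaned higher in untreated KO, with 3 of 19 past 2-fold (3.55% of all genes) and 0 lower (2.1%). The median was 0.23 (all genes 0.08). Among the 3 were phosphofructokinase Pfkl (FPKM 5.62 against 1.95) and pyruvate kinase Pkm (61.8 against 28.4). In loaded cells the KO minus WT median was 0.05 (all genes -0.06). There 1 gene was higher, Pkm (1.24), and 1 lower, Pklr (-1.66). In WT and KO alike, 0 of the 19 were past 2-fold with fatty acids. Lactate dehydrogenase Ldha was at 338, 279, 282 and 301 in untreated WT cells, untreated KO, loaded WT and loaded KO. Among other fates of pyruvate and citrate (11 genes), Pck1, the enzyme that starts gluconeogenesis from oxaloacetate, was at 3.58, 0.878, 8.89 and 0.916. Pck1 was the 1 gene of that list past 2-fold in loaded WT (1.37). The mitochondrial form Pck2 was higher in KO, at 7.94 against 3.22 in untreated cells and 9.59 against 1.64 in loaded cells. The citrate carrier Slc25a1 was likewise higher, at 84.8 against 40.0 and 111 against 36.2.

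Genes most like Pdk4 and Txnip across the 4 libraries were sought among 7265 others with an FPKM of 5 or more in some library, by the distance between their log2(FPKM + 1) profiles, each relative to the median gene and to its own mean. With 4 points such likeness is loose. Nearest to Pdk4 were Nfkbiz, an atypical inhibitor of NF-κB (distance 0.683), the noncoding RNA Bc1 (0.764) and the hyaluronan-binding protein gene Tnfaip6 (0.774). Bc1 rests on 58 to 270 reads. For Nfkbiz the FPKM was 1.97 in untreated KO and 0.925 in loaded KO, but the reads were nearly equal, at 719 and 709. Its lower level in loaded KO is thus hardly seen in the reads. Txnip ranked 6th and Arrdc4 7th from Pdk4, whereas Pdk4 ranked only 25th from Txnip (distance 0.812).

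Nearest to Txnip were the macrophage scavenger receptor Marco (distance 0.181), the aldo-keto reductase Akr1b7 (0.203) and Rgs16 (0.269), and Arrdc4 ranked 6th (0.384). Marco had an FPKM of 4.83 in untreated WT cells, 3.45 in untreated KO, 25.3 in loaded WT and 3.64 in loaded KO. Of the 10 macrophage markers compared, 9 were higher by 2-fold in loaded WT than in untreated WT and 0 lower. Higher too were 2 of 3 endothelial and 3 of 5 red blood cell markers, against 3.57% of all genes. The summed macrophage level on the deposited scale was 118 in loaded KO and 108 in loaded WT. On that scale the median gene was itself higher in loaded KO, by 0.38 in log2, so the sum was not higher relative to it. Relative to the median gene, the median KO minus WT difference of the 10 markers with fatty acids was 0.09 (all genes -0.06). Between these libraries 3 of the 10 markers were lower in KO by 2-fold (8.43% of all genes), as Txnip, Arrdc4 and Pdk4 were, and 1 was higher (3.12%). The lower ones were Marco (-2.88), Adgre1 (-1.79, FPKM 4.03 against 12.4) and Csf1r (-1.17, 2.82 against 5.61), and the higher one was Clec4f (1.28, 7.82 against 1.81). The part of these cells in the levels of the 3 genes was not tested.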

How the data were processed

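Gene expression was measured by RNA sequencing of stranded total RNA libraries, per the labels' protocols. Per the submitters' processing notes, the build was mm10 and the software comprised StringTie 2.1.3b, HISAT2 2.1.0, Trimmomatic 0.38, Bowtie2 and FastQC 0.11.7, with no role stated. The authors deposited whole read counts, not normalized. They also deposited FPKM, scaled by them to length and library, and TPM, the same values at an equal sum, per the file headers. For the counting, annotation and strand setting were not given in the sources used here.

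FPKM of all genes were compared as log2(FPKM + 1), kept where some library reached 1, relative to the median gene, with a 2-fold rule. Counts gave CPM ratios with exact binomial intervals. The 9 alternatives included CPM with TMM factors from edgeR 4.0.16 under R 4.3.3. Other work used Python 3.11.15, numpy 2.4.6, pandas 2.3.3, scipy 1.17.1 and matplotlib 3.10.9. The difference step was tested on simulated data.

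Members and lists were chosen with earlier results of these data known. Named were all members, up to 4 genes per list with large differences, and the 3 nearest profiles of Pdk4 and Txnip. Other genes were named after their values were seen. With 1 library per group no test was made. Coordinates are RefSeq's on GRCm38.p6. Some genes of the lists are not reported here by name.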

Additional observations from a re-analysis of the deposited data

Results flagged for a closer look

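For 7 of the 10 genes the fatty acid difference, relative to the median gene, had opposite signs in WT and KO. With 1 library per group the difference between the responses was not tested. It was largest in size for Pdk4, at -3.83 on the log2 scale (2.62 in WT and -1.20 in KO). Next came Txnip at -2.60 (2.43 and -0.17) and Arrdc4 at -2.22 (1.98 and -0.23). Pdk3 had -0.75, Pdk2 -0.54, Pdk1 -0.52 and Pdp1 -0.28. The value of Pdp1 stayed negative in only 2 of 6 other settings (-0.30 to 0.22), and that of Pdk1 ranged from -0.62 to -0.02. The tally depends on the scaling. Pdk4 and Arrdc4 kept opposite signs in all 6 other settings, whereas the KO difference of Pdk1 turned positive with quantile normalization (0.13) and in CPM with TMM (0.03), and those of Txnip, Pdk2, Pdk3 and Pdp1 turned positive in at least 1. For Pdk2 and Pdk3, with an FPKM under 1, these values take on much of the shift of the median gene. For Pdk2, Pdk3 and Pdk4 the KO minus WT difference also changed sign between untreated cells (0.18, 0.04 and 0.40) and cells with fatty acids (-0.31, -0.66 and -3.37). For Pdk2 the latter was positive in 3 of 6 other settings, on the deposited scale (0.06), after rescaling to an equal sum (0.22) and with quantile normalization (0.10), so that the sign did not change there.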

How the results depend on the processing

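The counts of members past 2-fold were recomputed under 9 other settings, and 82 of 90 recomputed counts were within 1.5 times the reported one. For higher in untreated KO, the count went from 0 to 1 (Pdk1) with a pseudocount of 0.1, in CPM with TMM, after rescaling to an equal sum (TPM) and with a 1.5-fold rule. Lower in untreated KO went from 1 to 0 with an equal sum (TPM). Higher in loaded KO went from 0 to 2 with an equal sum (TPM) and to 1 in CPM with TMM. Lower with fatty acids in KO went from 1 to 0 with a pseudocount of 5. The cause was not tested.

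For fatty acids in WT, Pdk4 ranged from 2.25 to 2.70, Txnip from 2.04 to 2.46 and Arrdc4 from 1.61 to 2.06 over the 6 settings that move single values, and in KO Pdk4 ranged from -1.26 to -0.99. No member past 2-fold changed sign in the 300 recomputed values. The sign of Txnip with fatty acids in KO was not fixed (-0.18 to 0.03). Counts over all genes moved by more than 1.5 times. In untreated cells, higher in KO ranged from 140 to 1635 and lower from 99 to 803. With fatty acids, these ranged from 156 to 3340 and from 360 to 2347. The response to fatty acids held 126 to 1395 higher and 12 to 638 lower genes in WT, and 1 to 91 and 149 to 1768 in KO. The difference of responses held 53 to 1154 and 357 to 3123.

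Every difference between groups compares 2 libraries, and the difference of responses uses all 4 libraries. In WT, 1 library, loaded WT, sets the responses of Pdk4, Txnip and Arrdc4. The lower Pdk4 with fatty acids in KO (-1.20) rests on the KO libraries alone. Depth was no limit for these 3 genes, with 2994 reads or more each, but was for Pdk2 and Pdk3. No paired analysis was possible because each group holds 1 library.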

Other observations

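Genes of the sister 2-oxoacid dehydrogenase complexes and of lipoylation had 0 of 10 past 2-fold with fatty acids in either genotype. In untreated cells, Bckdha, a subunit of the branched-chain complex, was lower in KO (FPKM 14.4 against 32.3, log2 difference -1.12). Hypoxia response genes, to which Pdk1 is often counted, had a median KO minus WT difference of 0.18 in untreated cells (all genes 0.08). Of 15, 2 were higher (3.55% of all genes) and 0 lower (2.1%). The higher ones were Epas1 (5.73 against 2.03) and Ddit4 (16.1 against 7.15), and Hif1a itself was at 44.1 against 57.3. Of 8 FOXO and insulin response genes compared, 2 were higher with fatty acids in WT (Pck1 and G6pc, 3.57% of all genes) and 0 in KO. In KO 1 was lower (5.05% of all genes), the insulin receptor Insr (4.83 against 11.5). Between genotypes with fatty acids, 2 of the 8 were lower in KO (8.43% of all genes) and 0 higher (3.12%), with a median of -0.42 (all genes -0.06). For KO response minus WT response, 4 of the 8 were past 2-fold downward (10.7% of all genes) and 0 upward (1.14%). The median was -1.04 (all genes -0.20), the most negative of the context lists. Some cell type marker lists had more negative medians, at -1.77 for cholangiocytes (2 genes), -1.69 for endothelium (3) and -1.34 for macrophages (10). The other marker lists had less negative ones.

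Among 8 glucocorticoid response genes, the clock gene Per1 had a Pdk4-like pattern, at an FPKM of 2.44 in untreated WT cells, 4.35 in untreated KO, 6.06 in loaded WT and 1.64 in loaded KO. Its fatty acid difference was 1.30 in WT and -1.18 in KO. Other genes of that list did not share it, since Fkbp5 was at 5.31, 9.97, 5.37 and 8.89 and Tsc22d3 at 7.29, 8.79, 7.27 and 11.0 in the same order. This resemblance was noticed after the values were seen.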
